A study of Solanum tuberosum with 36 samples.

Results

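Expression of 3 potato genes of carbon and amino acid metabolism was followed through soil drying in 4 cultivars. They were PGSC0003DMG400024849, coding for an alcohol dehydrogenase (ADH), PGSC0003DMG401015935, coding for aminoadipic semialdehyde synthase (LKR/SDH), and PGSC0003DMG400020629, coding for a phosphoglycerate mutase (PGM). All 3 were found in the tables, among 25289 genes. Enzyme names are those given by the study, which selected these genes on their readout in the cultivars Gwiazda and Oberon. The Gwiazda and Oberon values therefore only describe the genes and were given no test, whereas Tajfun and Owacja took no part in that choice and were tested. RNA came from leaves of tuberising plants grown in pots. In each cultivar, plants were sampled while watered (day 0) and after 6 and 10 days without watering, with 3 samples in each of the 12 groups by the labels. Gwiazda (drought tolerant) and Oberon (drought sensitive) share a parent, and Tajfun (tolerant) and Owacja (sensitive) descend from the same clone, so a tolerant cultivar could be set against a sensitive relative. Watered plants of days 6 and 10 were not among the samples, so drought and the passing of days cannot be told apart.

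Alcohol dehydrogenase reduces acetaldehyde to ethanol at the end of fermentation, returning NAD+ to glycolysis, and its transcript is known as a marker of low oxygen that also responds to other stresses. Aminoadipic semialdehyde synthase is a bifunctional enzyme whose lysine-ketoglutarate reductase and saccharopine dehydrogenase domains carry out the opening steps of lysine breakdown, by way of saccharopine. Phosphoglycerate mutase interconverts 3-phosphoglycerate and 2-phosphoglycerate in glycolysis. In plants, lysine breakdown is known to feed electrons into mitochondrial respiration when sugars run short.

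The study designed RT-PCR primers for each transcript, and these are the only sequences of the 3 genes used here. They are shown because they tie each identifier to bases of its transcript. Each is a 20-mer written 5′ to 3′, with no part in capitals.
ADH forward primer: atgccaagaaattcggtgtc
ADH reverse primer: tcgggccttttagaacacac
LKR/SDH forward primer: gtagccacctgccaagacat
LKR/SDH reverse primer: gatgcctctttcgcaaactc
PGM forward primer: tatgcttcactgccaacgag
PGM reverse primer: tggcttgttcagtctcatcg
They hold 9 to 11 G or C bases each.

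The deposited tables give the mean normalised read count of each group. Each group stands in 3 tables that were normalised separately, and from its 3 means the reads of the single libraries were recovered. All 885115 recovered values lay within 0.01 of a whole read. There were 35 libraries of 34298072 to 41041276 reads, against 36 samples in the labels, because the tables held only 2 libraries for Oberon on day 10. The libraries of a group carry no label of their own and are named A to C by falling read total. By correlation over genes, every library was closer to its own group (mean r of 0.944 to 0.986) than to any library of another group. RAB18, an ABA-responsive dehydrin gene used by the study as a drought marker, had 34 to 182 reads in watered libraries and 720 to 7182 in drought libraries, with no overlap. In a bulk leaf sample, fewer cells of a type and less RNA per cell cannot be told apart.

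ADH and LKR/SDH rose in both tested cultivars at both drought time points. PGM fell in Owacja on day 10 and passed the test at no other time point. A gene passed at an adjusted p below 0.05 (limma on log2 of the normalised value plus 1). In Tajfun, 2 of the 3 genes passed as higher on day 6, where 17.1% of 20028 genes did so, and 2 of 3 on day 10, where 18.9% did. Calls towards lower levels made up 19.8% and 23.5% of genes in Tajfun on days 6 and 10, and PGM was not among them (adjusted p = 0.355 and 0.147). In Owacja, 2 of the 3 genes passed as higher on day 6, against 16.3% of 19932 genes, and 2 of 3 on day 10, against 24.6% of 20121. Lower calls took 19.5% of genes in Owacja on day 6, without PGM (adjusted p = 0.404), and 25.8% on day 10, when PGM was among them.

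**Figure D1:**
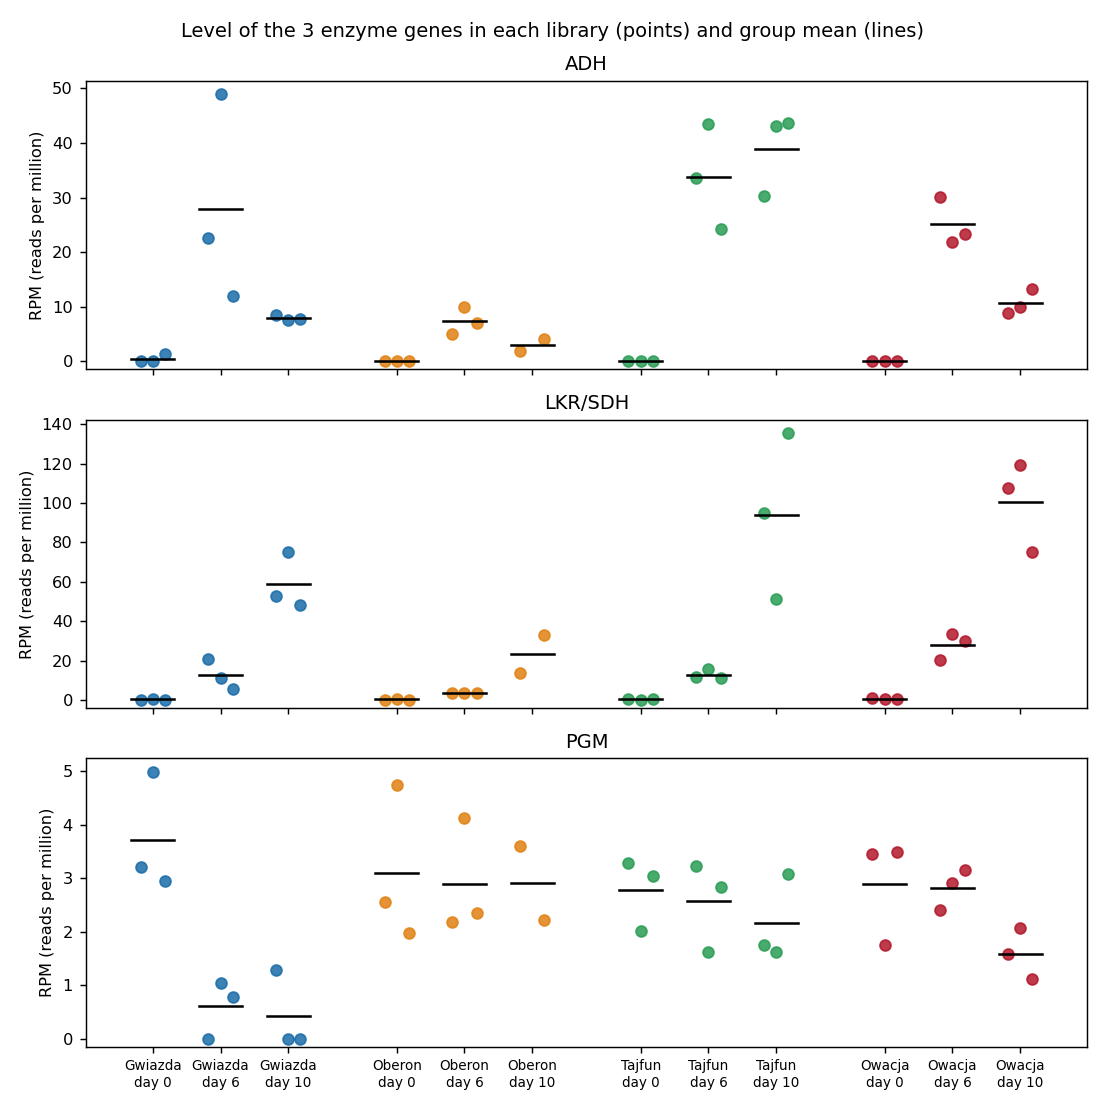
RPM (reads scaled to the same library total) for ADH, LKR/SDH and PGM in each library (points, in the order A to C) and the mean of each group (lines), by cultivar and days without watering. ADH is at 0 in 11 of the 12 watered libraries, LKR/SDH is highest on day 10 in every cultivar, and the PGM points of Gwiazda under drought lie below those of its watered plants.

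ADH was listed at 0 reads in all 3 watered Tajfun libraries. It reached 1374, 1762 and 958 reads in Tajfun libraries A, B and C on day 6. On day 10 the 3 libraries held 1204, 1704 and 1640 reads. Every drought library therefore lay above every watered one, and the day 6 and day 10 libraries overlapped. The limma test against day 0 gave adjusted p = 7.2e-06 on day 6 and 7.5e-06 on day 10, but it does not measure the bounds that follow. Against a floor of 6 reads (3 read pairs) over the watered group, ADH was at least 548-fold higher on day 6 and at least 630-fold higher on day 10. Fitted changes against a group at 0 depend on the pseudocount, so only these bounds are given, and they cover counting error only. Between days 6 and 10 the change in Tajfun was 0.27 ± 0.24 on the log2 scale (SE, adjusted p = 0.475).

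Owacja also had no ADH reads in its 3 watered libraries. On day 6 the libraries held 1206, 874 and 914 reads. On day 10 they held 344, 384 and 454. All day 10 libraries were below all day 6 libraries and above all watered ones. ADH was at least 372-fold higher on day 6 and at least 172-fold higher on day 10. The limma test, which does not measure these bounds, gave adjusted p = 6.4e-06 on day 6 and 9.5e-06 on day 10. Between days 6 and 10 the log2 value of ADH fell by 1.11 ± 0.23 (adjusted p = 0.00746). Changes from day 6 to day 10 in either direction passed for 33.5% of genes in Owacja and 15.1% in Tajfun, and of the 3 genes 2 passed in Owacja (ADH and LKR/SDH) and 1 in Tajfun (LKR/SDH). The difference in this ADH change, Tajfun minus Owacja, did not pass when tested itself (1.35 ± 0.41, adjusted p = 0.122).

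In Gwiazda, 2 watered libraries were at 0 reads for ADH and library C held 52. The day 6 libraries held 916, 1874 and 428 reads. The day 10 libraries held 348, 298 and 302. Watered, day 6 and day 10 libraries did not overlap, and day 6 was the highest group. By the authors' means, ADH was 60.2-fold higher than in watered plants on day 6 and 16.8-fold higher on day 10. Both values rest on watered library C, without which ADH was at least 396-fold and at least 111-fold higher. These bounds take the 0 listed for watered libraries A and B as absence of the transcript, which was not tested. Without day 6 library B, the day 6 value became 36.8-fold. The same library C also had the most RAB18 reads of the watered Gwiazda libraries (140, against 82 and 34), and day 6 library B had the most RAB18 reads of its group (3358, against 1976 and 868). Whether this bears on the ADH values was not tested.

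Oberon had ADH at 0 in its 3 watered libraries. It held 188, 364 and 248 reads on day 6. The 2 libraries of day 10 held 76 and 162. By the means, ADH was at least 128-fold higher on day 6 and at least 58.0-fold higher on day 10 than in watered plants (at least 35.6-fold without day 10 library B), and day 10 lay below day 6 in every library. The highest Oberon library, with 364 reads, was still below the lowest Gwiazda library of day 6, with 428. At least 2-fold higher means on day 6 were found for 11.5% of genes in Gwiazda and 12.1% in Oberon, and on day 10 for 18.4% and 19.1%. ADH and LKR/SDH were past that fold in all 4 comparisons. Those in Gwiazda were used to choose the genes, and the Oberon levels entered the choice through their comparison with Gwiazda.

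LKR/SDH showed a different time course, with its highest level on day 10 in all 4 cultivars. In Tajfun the watered libraries held 22, 10 and 16 reads. They reached 468, 634 and 446 on day 6. On day 10 they held 3774, 2030 and 5094. The 3 days did not overlap. LKR/SDH rose by 4.68 ± 0.34 on the log2 scale on day 6 (SE, n = 3 against 3, adjusted p = 4.6e-05) and by 7.46 ± 0.39 on day 10 (adjusted p = 2.4e-05). The means were 26.6-fold and 194-fold those of watered plants. From day 6 to day 10 it rose by 2.82 ± 0.33 (adjusted p = 0.00262).

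Owacja gave 34, 16 and 16 LKR/SDH reads when watered. On day 6 there were 814, 1332 and 1166 reads. On day 10 there were 4202, 4598 and 2574 reads, and again no library of one day overlapped another day. The rise was 5.24 ± 0.33 on the log2 scale on day 6 (adjusted p = 3.1e-05) and 7.20 ± 0.28 on day 10 (adjusted p = 4.1e-06), or 38.9-fold and 150-fold by the means. The further rise from day 6 to day 10 was 1.99 ± 0.22 (adjusted p = 0.000475). In the 4 tested comparisons with day 0, the fitted LKR/SDH change lay above that of 98.8% to 99.6% of all genes tested.

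**Figure D2:**
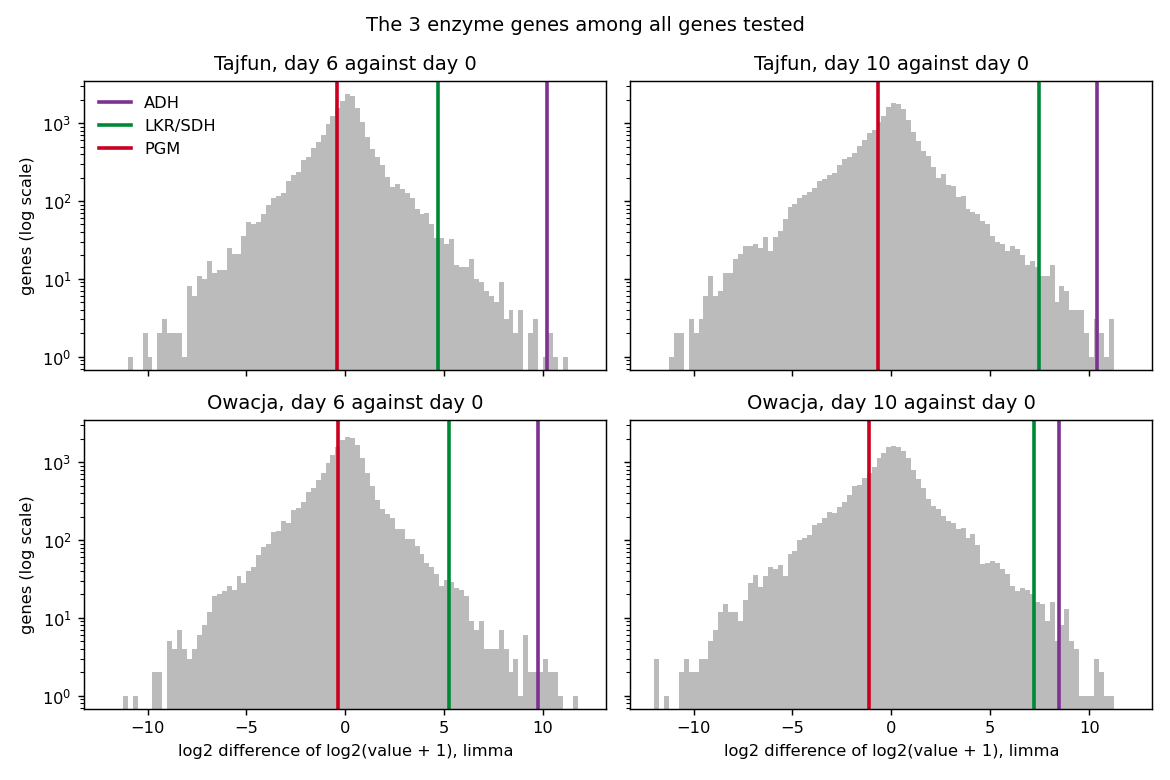
Histograms of the log2 change against day 0 (limma, log2 of value plus 1) over all genes tested in Tajfun (top) and Owacja (bottom), with vertical lines for the 3 enzyme genes and a logarithmic gene axis. LKR/SDH lies in the upper tail at 4.68 and 7.46 in Tajfun and at 5.24 and 7.20 in Owacja, PGM lies near the middle, and the ADH line depends on the pseudocount because its watered libraries are at 0.

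In Gwiazda, LKR/SDH had 2, 28 and 4 reads in watered libraries A, B and C. On day 6 the libraries held 846, 426 and 200 reads. On day 10 they held 2136, 2980 and 1888. The days did not overlap, and the means were 45.6-fold those of watered plants on day 6 and 215-fold on day 10. These folds were set by watered library B, without which they were 163-fold and 756-fold, since the other watered libraries held only 2 and 4 reads.

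In Oberon, the watered libraries held 8, 14 and 8 LKR/SDH reads. They held 144, 136 and 120 on day 6, the narrowest spread of any LKR/SDH group (coefficient of variation 5.53%). The 2 libraries of day 10 held 532 and 1288 reads. Again the days did not overlap. The means were 13.2-fold those of watered plants on day 6 and 90.3-fold on day 10, and the day 10 value was 50.6-fold without library B.

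**Figure D3:**
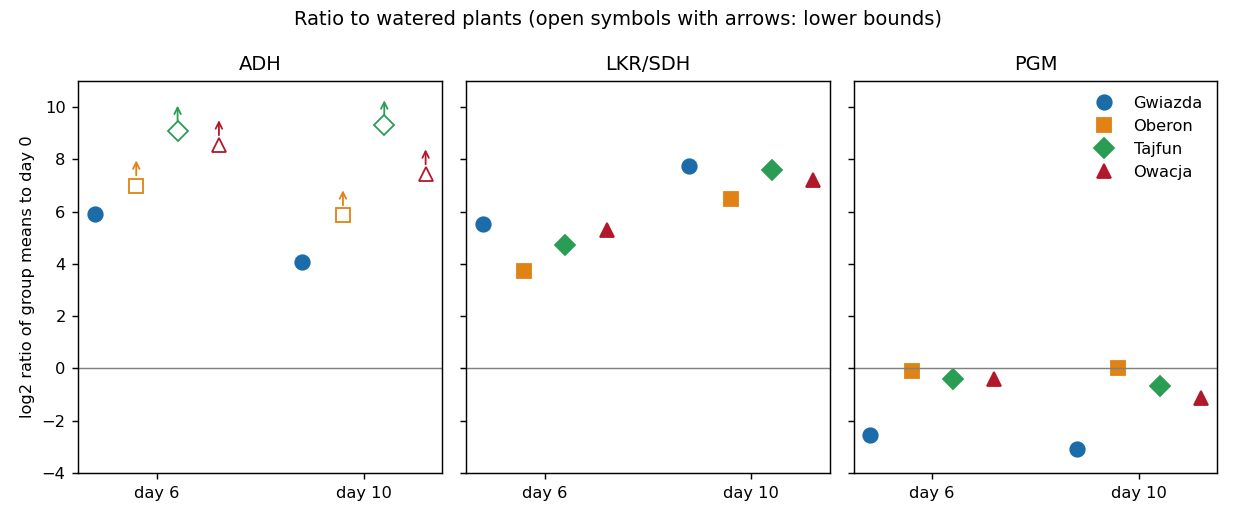
Log2 ratio of the group mean on day 6 or day 10 to the mean on day 0 for ADH, LKR/SDH and PGM in each cultivar. Open symbols with arrows are lower bounds against a group listed at 0. LKR/SDH ratios are larger on day 10 than on day 6 in all 4 cultivars, while for PGM only Gwiazda lies below −2.

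PGM means were more than 2-fold below those of watered plants in Gwiazda on both drought days and in Owacja on day 10. Watered Gwiazda libraries held 128, 198 and 114 PGM reads. On day 6 library A was listed at 0 and libraries B and C held 40 and 28. On day 10 library A held 52 reads and libraries B and C were listed at 0. All 6 drought libraries were below all watered ones. The means were 5.88-fold lower on day 6 and 8.54-fold lower on day 10. Without single drought libraries the day 6 value ran from 3.92-fold lower (without library A) to 9.34-fold lower (without library B). The day 10 value was 5.69-fold lower without library B or C and at least 47.3-fold lower without library A. At least 2-fold lower means were found for 20.2% of genes in Gwiazda on day 6 and 25.0% on day 10. The corresponding shares were 19.1% and 22.0% in Oberon, where PGM did not pass that fold.

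A library listed at 0 beside others with reads was not peculiar to PGM. Over the 11 groups with 3 libraries, 40290 combinations of gene and group had a middle library of 20 to 100 reads, and 8.0% of them had 1 library at 0. At 100 to 1000 reads the share was 1.23%. PGM in Gwiazda on day 6, with only library A at 0, belongs to the first share. Gwiazda on day 10, with libraries B and C at 0, belongs to neither, and such groups were not counted. Reads were divided among transcripts by estimation, and whether a listed 0 for PGM or ADH is an absence of the transcript was not tested.

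In Oberon the PGM reads of watered libraries were 92, 168 and 68. They were 82, 152 and 82 on day 6. They were 140 and 86 in the 2 libraries of day 10. The 3 days overlapped, with means 0.936-fold and 1.02-fold those of watered plants.

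Tajfun PGM reads were 134, 82 and 120 when watered. They were 132, 66 and 112 on day 6. They were 70, 64 and 116 on day 10. These groups overlapped throughout, and the log2 differences from day 0 were −0.45 ± 0.35 on day 6 (adjusted p = 0.355) and −0.70 ± 0.35 on day 10 (adjusted p = 0.147).

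Owacja PGM reads were 142, 66 and 132 when watered. They were 96, 116 and 124 on day 6. They were 62, 80 and 38 on day 10. In the read counts, watered library B (66 reads) lay below day 10 library B (80 reads), but after normalisation of that table all day 10 values lay below all watered values. PGM fell by 1.11 ± 0.36 on the log2 scale on day 10 (adjusted p = 0.0340), and on day 6 it differed by −0.36 ± 0.32 (adjusted p = 0.404). The day 10 call was lost when watered library A or C or day 10 library A or C was left out (adjusted p = 0.0866 to 0.104), and with scaling to library totals (−0.83, adjusted p = 0.128). From day 6 to day 10 PGM differed by −0.72 ± 0.31 in Owacja (adjusted p = 0.108) and by −0.21 ± 0.40 in Tajfun (adjusted p = 0.751).

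The tolerant and the sensitive cultivar of each pair were then compared on the same day. On day 0, Tajfun and Owacja both had ADH at 0 in every library, so it was not tested. Neither LKR/SDH (Tajfun minus Owacja −0.54 ± 0.53 on the log2 scale, adjusted p = 0.585) nor PGM (−0.10 ± 0.32, adjusted p = 0.879) passed, where 4.94% of 19624 genes did in either direction. On day 6, 1 of the 3 genes passed, against 11.6% of 19904 genes. It was LKR/SDH, which was lower in the tolerant cultivar, with 446 to 634 reads in Tajfun and 814 to 1332 in Owacja (−1.10 ± 0.23, adjusted p = 0.0224), and without overlap. This call was lost without Tajfun day 6 library A or C or Owacja day 6 library B or C (adjusted p = 0.0648 to 0.0925). ADH differed by 0.40 ± 0.22 on that day (adjusted p = 0.286), with overlapping libraries.

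On day 10, 1 of the 3 genes passed between Tajfun and Owacja, against 18.9% of 19681 genes. It was ADH, with 1204 to 1704 reads in Tajfun and 344 to 454 in Owacja, a mean 3.38-fold higher in the tolerant cultivar (1.78 ± 0.24 on the log2 scale, adjusted p = 0.00511, higher in 3 of 3 libraries). LKR/SDH differed by −0.27 ± 0.34 (adjusted p = 0.583) and PGM by 0.32 ± 0.37 (adjusted p = 0.556), with overlapping libraries for both genes. PGM on day 6 differed by −0.18 ± 0.33 (adjusted p = 0.759). In a joint fit of the 18 libraries, the response of ADH on day 10 against day 0 differed between the cultivars by 1.76 ± 0.41 (adjusted p = 0.0225), which 1034 of 21490 genes did. Without Tajfun day 10 library B, or Owacja day 10 library A or B, that adjusted p was 0.0595 to 0.0609. On day 6 the ADH response differed by 0.41 ± 0.41 (adjusted p = 0.771). The response of LKR/SDH differed by −0.57 ± 0.47 on day 6 (adjusted p = 0.701) and by 0.24 ± 0.47 on day 10 (adjusted p = 0.821), and that of PGM by −0.09 ± 0.49 (adjusted p = 0.974) and 0.40 ± 0.49 (adjusted p = 0.699). From day 6 to day 10 the changes differed by 0.81 ± 0.47 for LKR/SDH (adjusted p = 0.462) and by 0.49 ± 0.49 for PGM (adjusted p = 0.718).

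**Figure D4:**
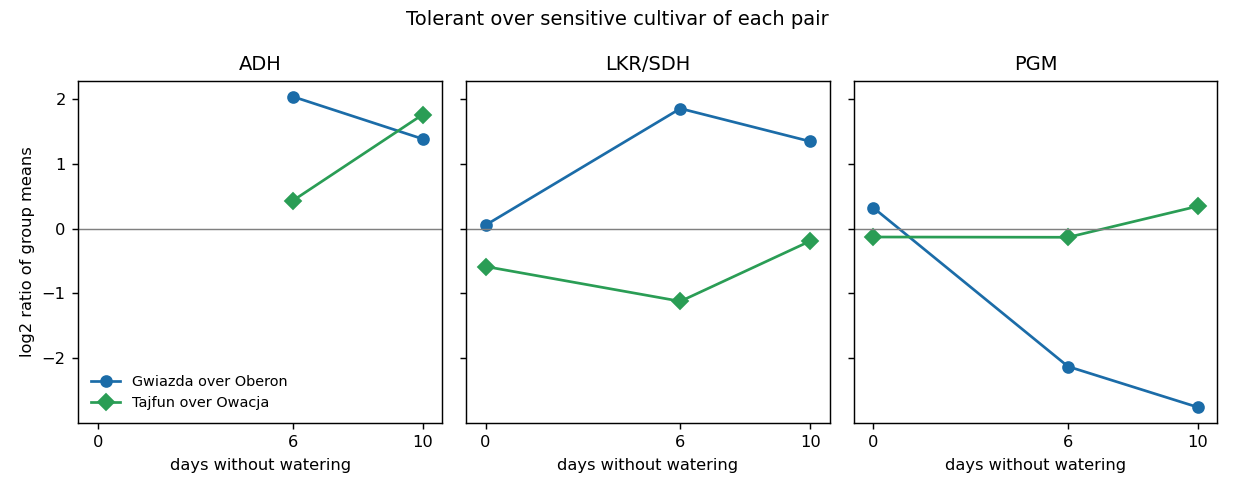
Log2 ratio of the group mean of the tolerant cultivar to that of its sensitive relative on days 0, 6 and 10, for Gwiazda over Oberon and Tajfun over Owacja. Points for ADH on day 0 are left out because Oberon, Tajfun and Owacja are at 0. On day 6 LKR/SDH is 1.85 in the Gwiazda pair and −1.12 in the Tajfun pair, and PGM is at −2.76 on day 10 in the Gwiazda pair and at 0.34 in the Tajfun pair.

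Gwiazda and Oberon, on whose values the genes were chosen, differed in all 3 genes under drought. On day 6 ADH was 4.10-fold higher in Gwiazda, LKR/SDH 3.61-fold higher and PGM 4.37-fold lower. On day 10 the values were 2.61-fold higher for ADH, 2.54-fold higher for LKR/SDH and 6.76-fold lower for PGM. The share of all genes without overlap between the cultivars was not counted. For the 3 chosen genes, the libraries of the cultivars did not overlap in any of these 6 comparisons, with 2 Oberon libraries on day 10. The study had kept only genes that differed significantly between these cultivars under drought, so the choice of genes favoured this separation. On day 0 the libraries overlapped for every gene, with means 1.04-fold for LKR/SDH and 1.25-fold for PGM in Gwiazda over Oberon. The lack of a significant difference on day 0 was itself a condition of the study's choice, so this likeness is no separate result. Without Gwiazda library B the LKR/SDH value on day 0 became 3.45-fold lower. Differences of at least 2-fold in either direction were found for 17.8%, 24.2% and 19.2% of genes on days 0, 6 and 10. Without Gwiazda day 6 library B, ADH was 2.49-fold higher and PGM 6.97-fold lower on day 6, and without library A PGM was 2.91-fold lower. Without Oberon day 10 library B, ADH was 4.18-fold and LKR/SDH 4.45-fold higher on day 10. PGM was at least 37.4-fold lower on that day without Gwiazda library A and 4.51-fold lower without library B or C.

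The 12 groups could be ordered within each gene by RPM, the reads scaled to the same library total. ADH was highest in Tajfun on day 10 (39.0 ± 7.58, SD, n = 3) and day 6 (33.8 ± 9.59), followed by Gwiazda (27.8 ± 19.0) and Owacja (25.1 ± 4.40) on day 6, and each of these overlapped its neighbour. Next came Owacja on day 10 (10.7 ± 2.30), Gwiazda on day 10 (7.93 ± 0.56) and Oberon on day 6 (7.32 ± 2.45), of which the last pair overlapped. Oberon on day 10 followed at 3.07 ± 1.57 (n = 2), and watered Gwiazda at 0.45 ± 0.78. Set on the same day, the sensitive Owacja and the tolerant Gwiazda, of different pairs, overlapped on day 6. On day 10 Owacja lay above Gwiazda by RPM, narrowly without overlap (lowest Owacja library 8.79, highest Gwiazda library 8.57). In the read counts these groups overlapped (344 to 454 in Owacja, 298 to 348 in Gwiazda). The difference was not tested.

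For LKR/SDH the order opened with Owacja (101 ± 22.9), Tajfun (93.9 ± 42.1) and Gwiazda (58.6 ± 14.7) on day 10, each overlapping the next. Owacja on day 6 (27.8 ± 6.72), Oberon on day 10 (23.5 ± 13.8, n = 2), Tajfun on day 6 (12.8 ± 2.46) and Gwiazda on day 6 (12.5 ± 7.76) formed a chain of overlapping neighbours. Oberon on day 6 stood alone at 3.65 ± 0.20, and the 4 watered groups overlapped between 0.28 and 0.56. For PGM, 10 of the 11 pairs of neighbours overlapped. The exception lay between Owacja on day 10 (1.59 ± 0.48) and Gwiazda on day 6 (0.61 ± 0.54), and Gwiazda on day 10 was lowest (0.43 ± 0.74). These levels are not corrected for transcript length and were not compared between genes.

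The gene nearest in its ratios was found for each enzyme gene, by the root mean square difference over the 8 log2 ratios to day 0 among 16728 genes with a mean of at least 100 in any group (10 added to each mean). For ADH it was PGSC0003DMG400021416, at a distance of 0.57 against a median of 5.49 over all genes. For LKR/SDH it was PGSC0003DMG400002724, at 0.62 against a median of 5.44. For PGM it was PGSC0003DMG400016091, at 0.40 against 1.48, but this gene does not share the pattern of PGM outside Gwiazda. It had 92 to 196 reads in watered Gwiazda and at most 4 in any library of the other cultivars, where its ratios are set by the added 10. Another gene came nearest in each case when 1 was added in place of 10. Watered ADH was at 0 in Oberon, Tajfun and Owacja, so its ratios there depend on the added 10. The nearest of many genes lies below the median by construction, so these distances are no test. Of 5 other genes that the study took from the Gwiazda and Oberon comparisons alone, 4 rose and 1 fell in Tajfun on day 6 (17.1% and 19.8% of all genes), and 3 rose and 1 fell on day 10 (18.9% and 23.5%). In Owacja 3 rose and 1 fell on day 6 (16.3% and 19.5% of all genes) and on day 10 (24.6% and 25.8%).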

How the data were processed

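Per the labels and the study's methods, reads were mapped with TopHat2 on the PGSC 4.03 pseudomolecules and counted per transcript with Flux Capacitor 1.6.1, and the authors summed isoforms per gene and ran DESeq on 2 groups at a time. The 18 deposited tables hold signal values, the mean normalised reads of each group. Their fold changes and p-values are the authors' own comparisons and were not used. Columns of other samples numbered 0. Reads per library were recovered here from the 3 means of a group (97.6% of the values were even, as for read pairs, and implied size factors averaged 1.00 to 1.01 per table). This was done after the tables were seen. Normalised values plus 1 were tested on the log2 scale with limma 3.58.1 (R 4.3.3), with a mean of at least 10 in either group and Benjamini-Hochberg adjustment over all genes. With limma, 100% of 200 genes with means of at least 100 changed 4-fold in simulated Tajfun day 6 libraries were recovered, with 7 false calls among 19230 genes. The simulation gave every gene the same dispersion. It changed no gene with a watered mean as low as those of ADH and LKR/SDH, and made no change as small as those of PGM. Recovery in such cases was not tested. By the study's methods, leaves were taken from 3 different plants of a cultivar at each time point. The p-values measure only the spread between the libraries of a group. The genes, lists and alternatives were chosen with earlier results of these data known. Named genes were the 3 enzyme genes, the nearest gene to each and RAB18. None of the 25289 identifiers matched the RefSeq table, so coordinates, pathway lists and leaf markers were not analysed here.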

Additional observations from a re-analysis of the deposited data

Results flagged for a closer look

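The drought response of ADH on day 10 differed between Tajfun and Owacja by 1.76 ± 0.41 on the log2 scale in the test of the difference itself (limma over 18 libraries, adjusted p = 0.0225). Since all watered libraries of both cultivars were at 0, this equals the difference between their day 10 levels. Over its alternatives the adjusted p ranged from 0.00787 to 0.0609. Groups of 3 libraries were too small to single out a library by its distance from the others.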

How the results depend on the processing

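The alternatives that leave out libraries and those of the limma tests were chosen after seeing the data. ADH and LKR/SDH kept their calls against day 0 in Tajfun and Owacja under every scaling, pseudocount, minimum mean and left-out library tried. PGM in Owacja on day 10 lost its call with total scaling (−0.83), and without single libraries it ranged from −1.36 to −0.93. That scaling adds −0.09 to 0.39 to the log2 change of every gene in the comparisons with day 0. LKR/SDH in Tajfun minus Owacja on day 6 ranged from −1.32 to −0.95 without single libraries, and the difference in ADH response on day 10 from 1.61 to 1.97, each losing its call in part of them. Adding 10 to the means lowered the log2 ratio of LKR/SDH to day 0 to 2.82 and 5.50 in Oberon (days 6 and 10), 4.11 in Tajfun (day 6) and 4.80 and 6.71 in Owacja, through its low watered means. Without single libraries the LKR/SDH log2 ratio in Gwiazda ranged from 4.94 to 7.35 on day 6 and from 7.25 to 9.56 on day 10, and over Oberon on day 0 from −1.79 to 0.55. Centring, total scaling and ratios taken by way of another day moved no ratio of means beyond the replicate spread. That spread was the larger log2 SD of the groups compared, a wide limit where libraries are at 0 (3.34 for ADH in Gwiazda on day 6). Within it, total scaling took the PGM log2 ratio on day 6 from −0.39 to −0.01 in Owacja and from −0.41 to −0.09 in Tajfun. For PGM a nearest gene at a minimum mean of 1000 could not be given. No paired analysis was possible because the recovered libraries carry no replicate number. Precision was limited by 2 or 3 libraries per group and by the few LKR/SDH reads in watered plants.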
